A study of Mus musculus with 14 samples.

Results

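Liver RNA of 8 wk old female mice (F8) was compared with liver RNA of 4 wk old female mice (F4) on 2 arrays, out of 14 in the series. Both arrays were identified from the labels of their channels, and no measured value was used to choose them. The mice were of the CD-1 strain, an outbred stock, and the labels name no treatment, transgene or gene deletion for any group. Each channel held RNA pooled from 6 livers, the arrays were hybridized with separate pools, and the dyes were exchanged. On array 1 F8 was labelled green (Alexa 555) and F4 red (Alexa 647), and on array 2 F8 was red and F4 green. Values are given as the log2 of F8 over F4, so that a gene above 0 was higher at 8 wk, and each mean comes from n = 2 arrays. Because mice were pooled, the spread between single animals cannot be seen, and p-values measure the spread between pools and arrays. For comparison, the text also uses the 2 arrays of 8 wk over 4 wk male liver (M8/M4), which share no pool with F8/F4, and the 2 arrays of 8 wk over 3 wk female liver (F8/F3), which share the F8 group.

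The liver of a newborn mouse still makes blood cells and grows by division of hepatocytes, and both activities recede as the animal matures. Female mice pass through puberty between weaning and young adulthood. In that period the pituitary takes up the adult, sex-dependent pattern of growth hormone release, which sets the level of many cytochrome P450 enzymes, sulfotransferases and urinary proteins in liver. F8/F4 spans this interval within a single sex.

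On the 2 arrays 67.7% to 71.3% of spots were well above background in a channel, a flag that the scanner software sets where a signal clearly exceeds its local background, no spot was saturated, and 0 or 2 spots were left out as non-uniform. A probe was tested where F8 or F4 was well above background on both arrays, which held for 26,469 of 39,429 probes. The labelled tissue and sex were checked against marker genes. All 15 hepatocyte markers on the array were well above background in both groups on both arrays, and the summed signal of this list was 1,540,000 to 1,853,000 in F4 and 1,475,000 to 1,764,000 in F8, in arbitrary units. Of 4 genes of the Y chromosome, Uty and Kdm5d were not well above background in either group. Eif2s3y was in F8 on both arrays and in F4 on 1, at signals of 7.42 to 30.5, and Ddx3y was in F4 on 1. Ddx3y had log2 ratios of male over female liver of 6.29 at 4 wk and 6.59 at 8 wk.

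From 4 to 8 wk, 612 genes were up regulated and 700 were down regulated in female liver. Calls required an adjusted p below 0.05 (limma, Benjamini-Hochberg adjustment) and a ratio above 1.5 or below 0.667. The calls came from 644 and 789 probes, or 2.43% and 2.98% of the probes tested, and 239 of the up regulated and 101 of the down regulated probes could not be named. The falls were deeper than the rises. The median log2 ratio was -1.04 over the down regulated and 0.80 over the up regulated probes, and 140 genes fell by more than 4-fold while 21 rose by as much. At more than 8-fold the numbers were 36 and 2. No called probe had opposite signs on the arrays, and 1112 of 1433 called probes passed 1.5-fold on each array by itself. The median over all probes tested was 0.02 and the median SD between the arrays was 0.11. Numbers of calls depended on the arrays in the fit. Without array 1 there were 308 up regulated and 425 down regulated genes, without array 2 there were 378 and 557, and with only the 6 arrays of the same scan day there were 114 and 319. With pools shared between comparisons as a covariance, which the 14-array fit leaves out, there were 410 and 554.

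**Figure D1:**
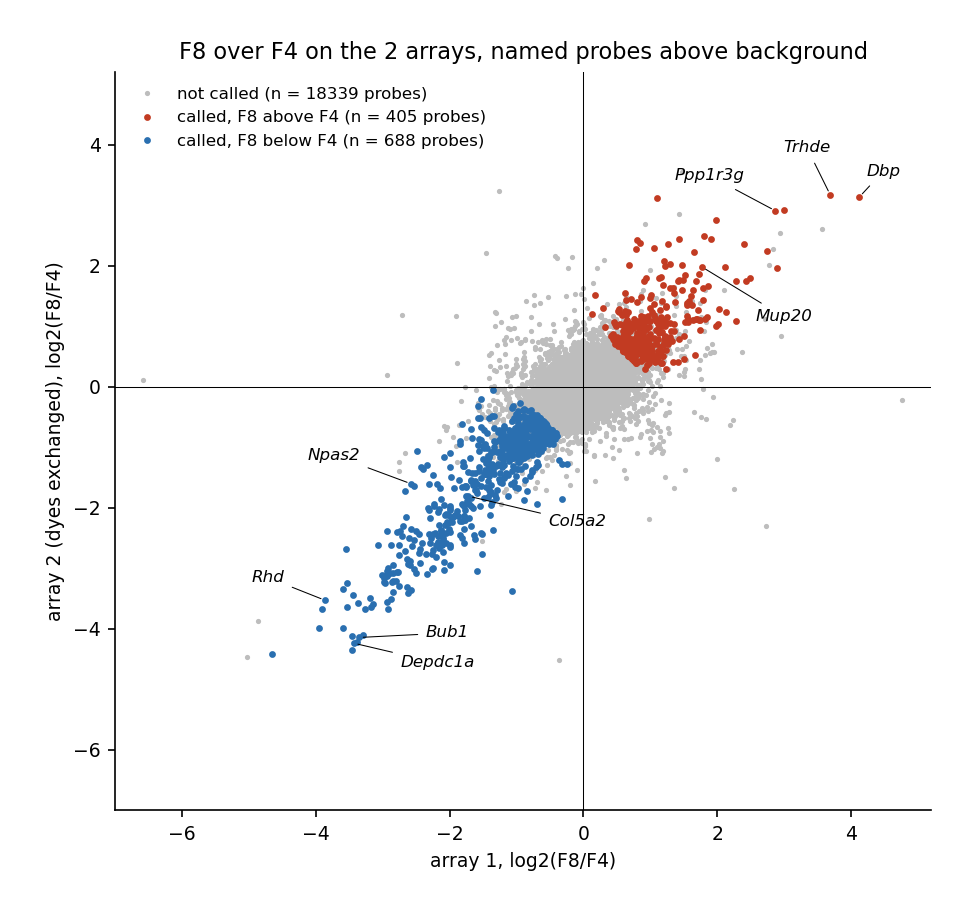
Log2 ratio of F8 over F4 on array 1 (x axis) against array 2 (y axis) for 19,432 named probes well above background; each point is a probe, coloured where it was called. Called probes lie along the diagonal on both sides of 0, and the arm of down regulated genes reaches below -4 on both arrays.

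Genes of cell division were among those that fell furthest. All 46 mitosis genes that could be tested, of 47 on the array, were down regulated in F8. Over 14,912 genes with 1 probe per gene, 3.72% were down regulated and 2.28% up regulated. The others of the 46 passed the filter through F4 alone: 41 were well above background in both groups on both arrays, and with that filter 41 were down regulated. The median log2 ratio of the 47 was -2.44, against 0.02 over all genes tested, and it was -2.17 on array 1 and -2.59 on array 2. With background correction by normexp followed by loess it was -1.80. The remaining gene, Cenpf, a kinetochore protein, was too dim to test and had a log2 ratio of -2.62. The kinesin Kif18b, a motor protein of the mitotic spindle, had log2 ratios of -3.60 and -3.99 on the arrays (mean -3.79, SE 0.25, adjusted p = 0.000331). It was well above background in F4 on both arrays and in F8 on neither, so its fall is given as at least 1.93-fold, from background-corrected signals. Aurkb, the kinase of the chromosomal passenger complex, fell by 3.91 and 3.68 and was likewise not well above background in F8, which bounds its fall at 2.32-fold or more.

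Most mitosis genes stayed measurable at 8 wk. Bub1, a kinase of the spindle checkpoint, had processed signals of 332 and 474 in F4 and of 32.8 and 26.9 in F8, with log2 ratios of -3.35 and -4.15 (mean -3.75, SE 0.32, adjusted p = 0.000762). Ccnb1, which encodes cyclin B1, was at -3.26 and -3.68, and Cdc20, the activator of the anaphase-promoting complex, was at -3.19 and -3.50. The proliferation marker Mki67 was at -2.84 and -3.08, the mitotic kinase Cdk1 at -2.64 and -2.85, and topoisomerase Top2a at -2.17 and -2.47. F8 was below F4 on both arrays for all 47 genes. The smallest fall was that of Spc24, a kinetochore subunit, at -0.63 and -0.81. Outside the list, deep falls among genes bright in both groups were those of Depdc1a (-3.43 and -4.24), of Esco2 (-3.39 and -4.22), an acetyltransferase that joins sister chromatids, and of Pbk (-3.53 and -3.65), a mitotic kinase. Ckap2l, Ska1, Neil3 and Ckap2 had means from -3.45 to -3.29. Ncapg, a condensin subunit with a fall of at least 2.57-fold, and Spc24 lost their calls without either array. Leaving out either array left 44 mitosis genes called, and the 6 arrays of the same scan day gave 42. Markers of erythroid cells, which divide in young liver, fell on the same arrays (7 of 10 tested, summed signal of 80,660 to 94,910 in F4 and 42,430 to 46,580 in F8), and their part in the fall of the mitosis genes was not tested.

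Many genes of mitosis carry in their promoters the cell cycle homology element, read as TTTGAA, and inverted CCAAT boxes. Both were looked for, on either strand, in the RefSeq promoter windows of mouse build GRCm38.p6, which run from 250 bases before to 50 bases after the start of a gene. TTTGAA was present in 28 of 39 down regulated mitosis genes with a window (71.8%) and in 20.2% of all 27,025 genes with one. CCAAT was present in 26 of 39 (66.7%) and in 41.1% of all, and both in 23 of 39 (59.0%) and in 7.97% of all. These are counts of letters in a window and not of bound factors. Windows of 3 mitosis genes with low log2 ratios that held both motifs are shown as examples of the group, with matches to either motif, on either strand, in capitals. They lie at chr11:102925075-102925374 on the minus strand for Kif18b, at chr5:45669675-45669974 on the plus strand for Ncapg, and at chr4:118437294-118437593 on the minus strand for Cdc20. In all 3 windows the TTTGAA element lies close to the start of the gene.
Kif18b: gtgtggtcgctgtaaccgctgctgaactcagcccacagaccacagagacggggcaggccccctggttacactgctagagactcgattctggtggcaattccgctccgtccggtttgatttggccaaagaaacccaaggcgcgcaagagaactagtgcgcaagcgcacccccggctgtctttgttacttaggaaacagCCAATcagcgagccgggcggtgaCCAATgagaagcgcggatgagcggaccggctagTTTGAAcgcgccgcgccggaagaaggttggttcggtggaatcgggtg
Ncapg: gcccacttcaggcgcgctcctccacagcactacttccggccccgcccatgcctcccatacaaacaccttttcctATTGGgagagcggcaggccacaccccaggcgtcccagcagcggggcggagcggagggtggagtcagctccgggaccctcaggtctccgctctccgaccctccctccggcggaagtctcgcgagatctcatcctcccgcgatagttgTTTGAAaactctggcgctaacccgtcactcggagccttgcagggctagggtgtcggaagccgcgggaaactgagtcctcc
Cdc20: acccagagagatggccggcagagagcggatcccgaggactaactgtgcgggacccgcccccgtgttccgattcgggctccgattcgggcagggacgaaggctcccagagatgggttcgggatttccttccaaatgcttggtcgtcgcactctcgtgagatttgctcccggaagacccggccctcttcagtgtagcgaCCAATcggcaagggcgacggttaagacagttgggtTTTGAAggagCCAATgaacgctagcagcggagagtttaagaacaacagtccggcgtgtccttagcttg

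Genes of DNA replication fell in part. Of 36 genes tested, 21 were down regulated (58.3%, beside 3.72% of all genes), 1 was up regulated and 14 were not called. The median log2 ratio was -0.69. In both groups on both arrays, 33 of the 36 were well above background. The licensing factor Cdc6 was at -2.59 and -2.95 (adjusted p = 0.00101) and Orc1 of the origin recognition complex at -2.15 and -1.68. Neither was well above background in F8 on either array, and their falls are given as at least 2.07-fold for Cdc6 and 1.25-fold for Orc1. Among genes bright in both groups, Uhrf1, which maintains DNA methylation behind the fork, was at -1.82 and -2.50 and Rrm2, the small subunit of ribonucleotide reductase, at -1.68 and -1.84. Subunits of the MCM helicase ranged from -1.66 (Mcm6) to -0.69 (Mcm7), and all 6 were down regulated. Pcna, the sliding clamp, had a log2 ratio of -0.47 with an adjusted p of 0.00153 and did not pass 1.5-fold. Mcm10, which joins the helicase to the polymerase, went the other way, with 1.54 and 1.17 (mean 1.36, adjusted p = 0.00835), and it was at 1.53 in M8/M4. The Mcm10 call was lost without array 1, the Orc1 call without either array.

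Erythroid genes formed the other group with very deep falls. Of 10 genes tested, 7 were down regulated (70%, beside 3.72% of all genes) and none was up regulated. Counting any probe of a gene, 8 were down regulated. The median over the 11 genes on the array was -1.62. Epb42, a protein of the red cell membrane skeleton, was at -3.46 and -4.35. It was well above background in F4 on both arrays and in F8 on neither, which gives a fall of at least 2.20-fold. Gata1, the transcription factor of the lineage, was at -2.61 and -2.50 and likewise dim in F8 (at least 1.85-fold). The Rh protein gene Rhd was at -3.87 and -3.53. Slc4a1, the anion exchanger, was at -1.68 and -1.56 and the haemoglobin gene Hba-a1, whose probe may also detect its near-identical copy, at -1.23 and -0.81. Alas2, the first enzyme of haem synthesis in red cells, was not called (-0.22 and -0.26), and neither was Klf1, which disagreed between the arrays (0.96 and -0.34). Hba-a1 contributed most of the summed signal of the list. In whole liver, fewer cells of a type and less RNA per cell cannot be told apart, for this and for the other marker lists. There were 3 calls where both groups had to be well above background on both arrays and 5 with shared pools in the covariance, and Hba-a1 was not called without array 1. With background correction by normexp followed by loess the median of the list was -0.89.

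**Figure D2:**
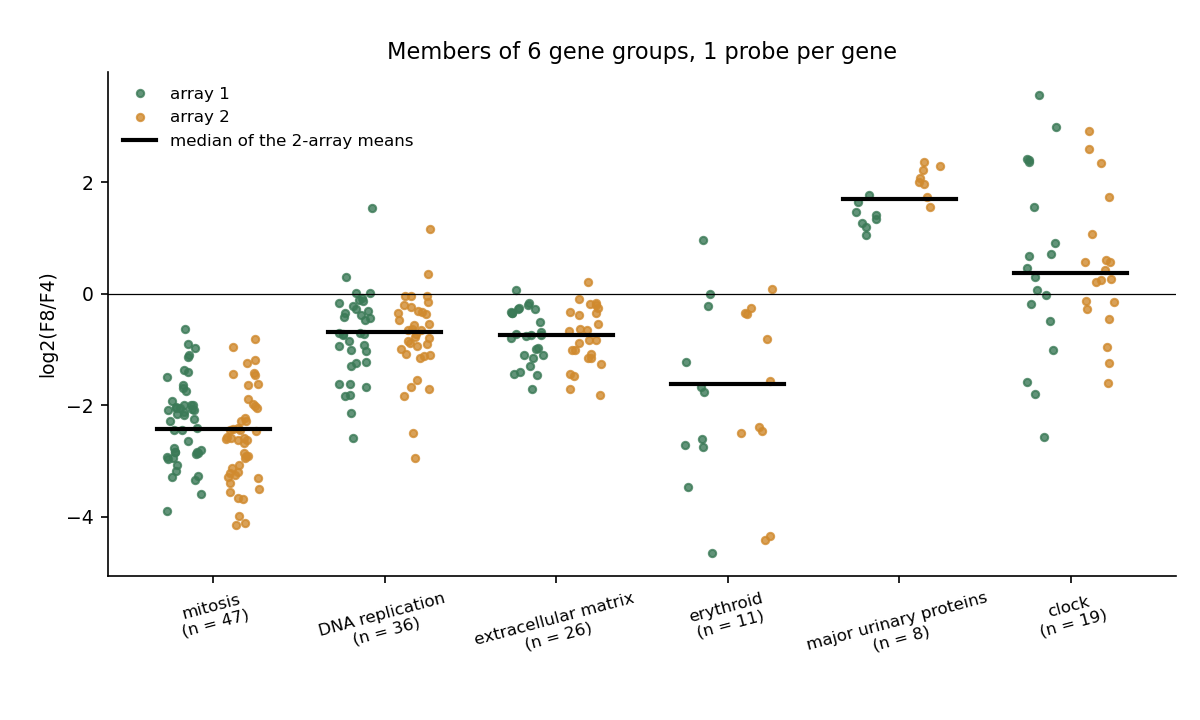
Log2 ratio of F8 over F4 (y axis) on array 1 (green) and array 2 (orange) for the members of 6 gene groups; each point is a gene by 1 probe and the bar is the median of the 2-array means. All mitosis genes lie below 0 and all major urinary protein genes above 0 on both arrays, while clock genes lie on both sides.

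Genes of the extracellular matrix were down regulated together with these. Of 26 genes tested, 16 were down regulated (61.5%, beside 3.72% of all genes) and none up regulated. All 26 had a mean below 0 (median -0.74). Fibrillar collagens led the group. Col5a2 was at -1.72 and -1.81 (mean -1.77, adjusted p = 0.00204), Col1a1 at -1.30 and -1.70, and Col3a1 at -1.41 and -1.48. Eln, which encodes elastin, was at -1.45 and -1.44, and Lox, which cross-links both proteins, was at -1.45 and -1.26. The basement membrane collagens Col4a1 and Col4a2 were at -1.11 and -1.09 and at -0.76 and -0.67. Among the 10 members of the list that were not called, Pdgfra was at -0.25, Pdgfrb at -0.23, Des at -0.17 and Lrat at -0.09. Fn1, fibronectin, which hepatocytes also secrete, was at -0.27 and 0.21. The summed signal of the list was 228,600 to 232,500 in F4 and 151,600 to 173,400 in F8. Over the collagen family 9 of 30 genes tested were down regulated (30%) and none was up regulated. Counting any probe of a gene, 10 collagens were down regulated. Among the serpins the collagen chaperone Serpinh1 fell by 0.99 (-1.06 and -0.92). With only the 6 arrays of the same scan day 9 matrix genes were called, and Col1a1 was not called without either array.

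Other genes of the immature liver moved the same way in part. Of 7 tested genes typical of fetal and suckling liver, 4 were down regulated (57.1%, beside 3.72% of all genes). These were Lpl, lipoprotein lipase (-2.25 and -2.70, adjusted p = 7.73e-05), the RNA-binding protein Igf2bp3 (-1.81 and -2.22), Cd24a (-1.47 and -1.44) and the glypican Gpc3 (-0.91 and -1.04). For Lpl the fall was smaller in M8/M4 (-1.29) and the difference was called (adjusted p = 0.0133). Afp, alpha-fetoprotein, had log2 ratios of -1.44 and -1.12 and was not called (adjusted p = 0.188). Among imprinted growth genes, of which 14 were tested, Mest (-0.98 and -1.19) and Plagl1 (-0.62 and -0.76) were down regulated and the amino acid transporter Slc38a4 was up regulated (1.30 and 0.81). A further 2 probes of Plagl1, well above background but dimmer, were at 0.03 and 0.01. The Plagl1 and Igf2bp3 calls were lost without either array and the Slc38a4 call without array 1. None of 20 genes of the growth hormone and insulin-like growth factor axis was called, with a median of -0.04, and Igf1 itself was at -0.02 and -0.22 and the receptor Ghr at 0.33 and 0.11.

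Markers of other resident cells gave 0 to 2 calls in each direction per list, where 2.28% up and 3.72% down of all genes were called, and nothing is read from these counts. Of 13 macrophage genes tested, only Marco, a scavenger receptor of Kupffer cells, was called (-1.28 and -1.28), while Vsig4 was at -0.34 and Cd5l at -0.21. No gene was called among 14 of the sinusoidal endothelium, where Stab2 was at -0.16 and Clec4g at -0.11, or among 8 B cell and 12 T cell genes tested, where Cd22 was at 0.13 and Cd4 at -0.18. Their medians lay between -0.25 (macrophages) and -0.08 (B cells). Of 7 MHC class II genes 1 was up regulated, the invariant chain Cd74 (0.64 and 0.65), and H2-Ab1 was at 0.53 with an adjusted p of 0.00364 and missed 1.5-fold. The Cd74 call was lost without either array, while H2-Ab1 and H2-Eb1 were called up without array 1. Bile duct genes were split. Sox9, a transcription factor of the duct lineage, and Prom1 were down regulated (means -0.94 and -0.82), and the chloride channel Cftr was up regulated (0.71 and 1.00). Sox9, with an adjusted p of 0.0497, and Prom1 were not called without either array, and a dimmer probe of Prom1 was at -0.61 and not called. Among 15 hepatocyte genes tested, Tat, tyrosine aminotransferase, was up regulated (0.77 and 0.52) and Ahsg, fetuin A, was down regulated. The values of Ahsg were -1.35 and -0.06 on the arrays, a dye difference that the fit removed, and it was not called without the dye term.

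**Figure D3:**
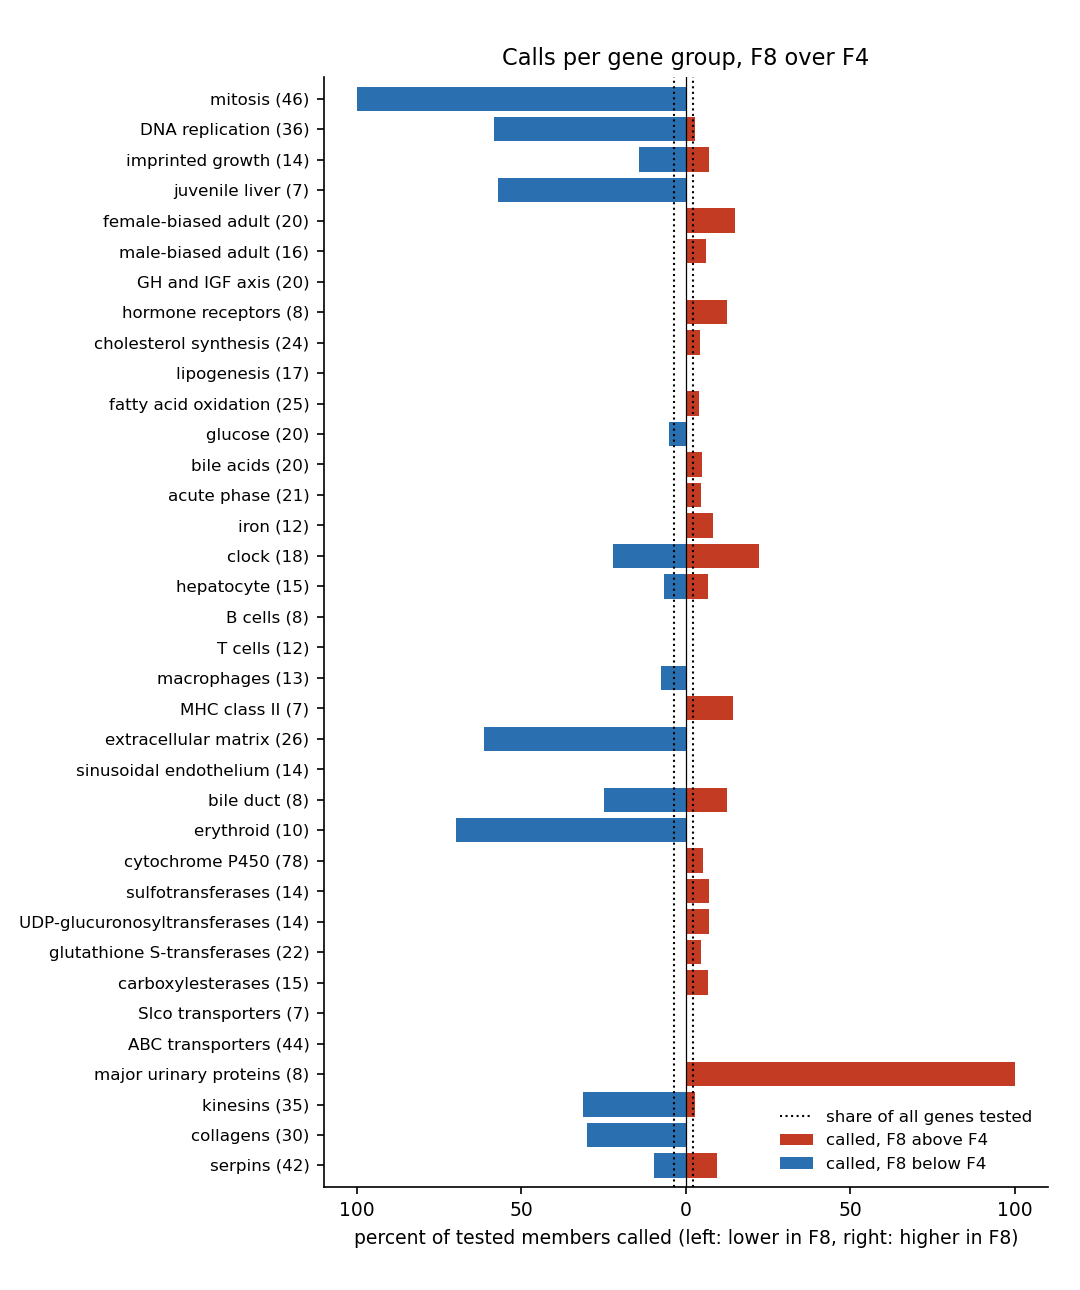
Percent of tested members called in F8/F4 (x axis) for each gene list and symbol family with at least 7 genes tested (y axis, number tested in brackets); blue bars to the left are down regulated, red bars to the right up regulated, and dotted lines mark the shares over all genes tested, 3.72% and 2.28%. Mitosis, erythroid, matrix, DNA replication and juvenile liver genes stand to the left and major urinary proteins to the right.

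Clock genes moved in both directions. The circadian clock is a feedback loop in which Arntl with Clock or Npas2 drives the Per, Cry and Nr1d genes, whose products repress it in turn. Of 18 clock genes tested, 4 were up regulated and 4 down regulated (22.2% each, beside 2.28% and 3.72% of all genes). The up regulated genes were Dbp (3.00 and 2.91), Nr1d1 (2.41 and 2.35), Nr1d2 (2.43 and 1.75) and Tef (1.57 and 1.07). Dbp and Tef are activators of the PAR family, and Nr1d1 and Nr1d2 are the REV-ERB repressors. A further probe of Dbp had the highest log2 ratio of any named gene called, with a mean of 3.63. The down regulated genes were Npas2 (-2.58 and -1.61), Cry1 (-1.81 and -1.25), Arntl (-1.58 and -0.96) and Nfil3 (-1.01 and -0.45), a repressor at the sites that Dbp activates. Counting any probe of a gene, 5 clock genes were down regulated. Per3 (2.37 and 0.58) and Ciart (3.57 and 2.61) were high but not called (adjusted p = 0.0891 and 0.0634), though Per3 was called up without array 2, and Per1 and Per2 were at 0.66 and 0.44. In M8/M4 Dbp was at 2.90, Nr1d1 at 2.40 and Npas2 at -1.65, and in F8/F3, which shares the F8 group, they were at 2.98, 3.04 and -1.34. The time of day at which livers were collected is not given in the sources used here. Without array 1 only Nr1d1 and Nr1d2 stayed called, without array 2 Npas2, Arntl and the brighter probe of Dbp were lost, and error-weighted averaging of the deposited ratios called 8 clock genes up and 4 down.

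**Figure D4:**
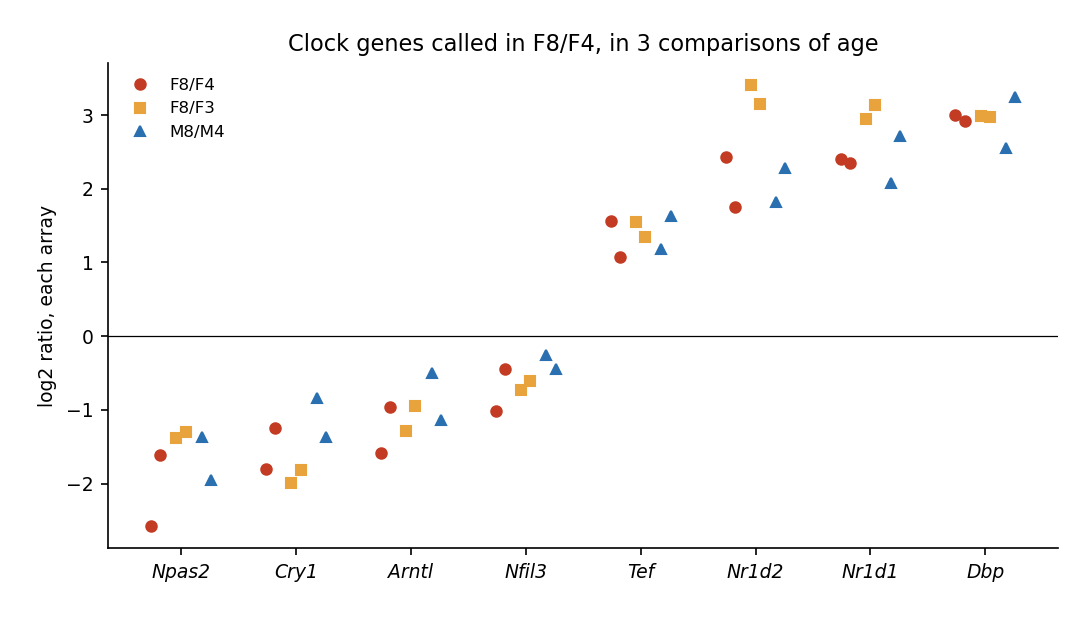
Log2 ratio on each array (y axis) of the 8 clock genes called in F8/F4 (x axis), for F8/F4 (circles), F8/F3 (squares, same F8 group) and M8/M4 (triangles, no shared pool). The 4 genes to the left are below 0 and the 4 to the right above 0 on the arrays of F8/F4 and of M8/M4.

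Major urinary proteins rose as a family. These are lipocalins that the liver secretes and that bind pheromones in urine. All 8 genes of the family on the array were up regulated (beside 2.28% of all genes), with means from 1.45 to 1.94. Mup5 was at 1.65 and 2.23, Mup20 at 1.77 and 1.98, and Mup2 at 1.27 and 2.36. The members are near-identical in sequence, so a probe may detect several of them, and the 8 values are not independent. In M8/M4 their median was 2.47, and with 1 probe per gene the difference between the sexes was called for none of the 8 (for Mup20 2.34, adjusted p = 0.0953). A dimmer probe of Mup20, at 1.00 and 1.46 in F8/F4, had a called difference (2.66, adjusted p = 0.0204). The family held 5 calls without the dye term, 5 with shared pools in the covariance, 1 call without array 1 and 1 call without array 2.

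Metabolic lists held 0 or 1 call each, which is near the share over all genes. Some alternatives gave more, and with 6 group means fatty acid oxidation held 2 calls up and 2 down. Cyp7a1, the rate-limiting enzyme of bile acid synthesis, was the 1 gene of 20 called in the bile acid list, with 1.18 and 1.69 (adjusted p = 0.00511), and it was at 1.38 in M8/M4. Of 24 genes of cholesterol synthesis, 23 had a mean above 0 but only Msmo1, a sterol C4 demethylase, was up regulated (0.65 and 0.62), and Hmgcs1 was at 0.25. No lipogenic gene of 17 was called by its brightest probe, while a dimmer probe of Acacb, an acetyl-CoA carboxylase, was up regulated (0.94 and 0.81, adjusted p = 0.0174). Up to 4 of the 17 were called up in alternatives, the most with error-weighted averages. Scd1, the stearoyl-CoA desaturase, had log2 ratios of 1.49 and 0.86 with an adjusted p of 0.254. In the glucose list Ppp1r3c, which targets protein phosphatase to glycogen, was down regulated (-1.22 and -1.06), while its relative Ppp1r3g was among the highest up regulated genes of the array (2.87 and 2.91, adjusted p = 0.0345, not called without either array). Hamp, the iron hormone hepcidin, was up regulated (0.94 and 0.95), as was the acute phase protein Orm3 (0.71 and 1.45). Counting any probe of a gene, 1 gene of the iron list and 1 of the acute phase list were down regulated. Hamp lost its call without array 1, and Cyp7a1 and Orm3 lost theirs without array 2.

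Of 78 cytochrome P450 genes tested 4 were up regulated (5.13%, beside 2.28% of all genes) and none down regulated, with a median of 0.14 over the 94 on the array. They were Cyp17a1, a steroid hydroxylase (1.58 and 1.42), Cyp7a1, Cyp46a1, a cholesterol 24-hydroxylase (1.08 and 1.08), and Cyp2g1 (1.08 and 0.78). Cyp2g1 was not called without either array, which left 3 calls without array 1 and, with Cyp7a1 lost too, 2 without array 2. With the arrays of the same scan day 1 was called and with shared pools in the covariance 2. With 6 group means 5 were up regulated and 1 down regulated, and counting any probe of a gene 5 were up regulated. The single calls in other families were Sult1c2 among 14 sulfotransferases, Ugt3a1 among 14 UDP-glucuronosyltransferases (1.14 and 1.09), Gsto2 among 22 glutathione S-transferases and Ces1f among 15 carboxylesterases. No flavin monooxygenase (5 tested), Slco transporter (7) or ABC transporter (44) was called by its brightest probe, and a dimmer probe of Abcg4 was down regulated (-2.30 and -1.62). Among kinesins, by the brightest probe of each, 11 of 35 were down regulated and Kif26b was up regulated, with signals of 8.88 to 10.2 in F4 and 18.3 to 26.0 in F8, and it was not called without either array. A dimmer probe of Kif9 was at 0.76 and 0.42 and called. Without array 2, 3 other kinesins were called up. Among 42 serpins tested 4 rose, with Serpinb1a at 1.85 and 1.15 and Serpinb1c at 1.73 and 1.09, and 4 fell (9.52% each, beside 2.28% and 3.72% of all genes). Serpinb10 was at -2.17 and -2.08 but not well above background in F8, so its fall is at least 1.27-fold. Without array 1 there was 1 up regulated serpin, and without array 2 there were 2 down regulated ones. The calls of Sult1c2, Gsto2, Serpinb1a and Serpinb1c were lost without array 1.

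Further genes with large rises came from no single list. Sun3, a protein of the nuclear envelope known from testis, was at 2.74 and 2.24, Tmem45b at 1.91 and 2.43, the homeobox gene Irx1 at 1.80 and 2.50, and Dnajb11, a co-chaperone of the endoplasmic reticulum, at 2.12 and 1.98. Some genes were well above background in F8 on both arrays and in F4 on neither (34 probes called). The highest of these was Trhde, a peptidase that degrades thyrotropin-releasing hormone (3.69 and 3.17, at least 2.07-fold). Osbp2 (2.48 and 1.79), Tectb, Olfr677, BC051665 and G6pc2 followed, with bounds from 1.26-fold to 1.60-fold. Tectb and Olfr677 were not called without either array, and Irx1, BC051665 and G6pc2 not without array 2. The reverse pattern, bright in F4 only, was found for 47 called probes and included Cdc25c, the phosphatase that activates Cdk1 (at least 1.80-fold), and Efcab11 (at least 2.20-fold). Bhlha15, a transcription factor of secretory cells, was at -3.53 and -3.25 and was not called without either array.

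Fewer sex-biased genes of the adult liver were called in F8/F4 than in M8/M4. Of 20 genes that are higher in adult female liver, 3 rose in F8/F4 (Cyp17a1, the transcription factor Tox, and Acot3, a peroxisomal acyl-CoA thioesterase) and none fell, with a median of 0.09 that was at -0.01 without array 2. In M8/M4 none rose and 15 fell, with a median of -2.27, and the difference between the sexes was itself called for 11 of the 20. With 1 probe per gene, the share of all genes with a called difference was 1.31%. Over all genes, 2.28% rose and 3.72% fell in F8/F4, and 4.44% rose and 6.38% fell in M8/M4. Nothing is read from the comparison because the list was chosen for adult sex bias. Against 3 wk the females had 11 of these genes up regulated (median 0.80). Over the whole array 1284 genes were up regulated in F8/F3 and 612 in F8/F4. The sulfotransferase Sult3a1 was at 0.05 in F8/F4 and 3.88 in F8/F3, Cyp2b13 at 0.58 and 2.30, and the repressor Cux2 at 0.56 and 2.20. F8/F3 and F8/F4 share the F8 group. Of 16 tested genes that are higher in adult male liver, Mup20 alone was called in F8/F4 (median of the 17 on the array 0.26), and no gene of the list was called without array 1, without array 2 or with shared pools in the covariance. In males 11 rose in M8/M4 (median 2.03), and the difference was called for 5. The lists were drawn from genes known for these biases, in part from earlier results of these data.

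The difference between the sexes was then tested over all probes as M8/M4 minus F8/F4. It was called for 341 genes, from 364 probes or 1.34% of 27,077 probes tested. The value was higher in male liver for 208 genes and lower for 133. Several of the largest differences belonged to genes that were not called in females. Cyp3a44 was at -0.60 and -0.56 in F8/F4 and at -4.95 and -5.74 in M8/M4 (difference -4.76, adjusted p = 0.00558). A1bg, a secreted protein of the immunoglobulin family, was at -0.11 and -0.09 against a mean of -4.19 in M8/M4, and Cyp2b9 was at 0.49 and 0.26 against -3.50. In the other direction Obp2a, an odorant-binding protein, was at -2.07 and -0.74 against 4.34 in M8/M4, and Capn8, a calpain, at -0.97 and 0.10 against 3.10. Neither was well above background in F8, and Capn8 was not in F4 either, so their female ratios are of signals near background. Only 3 genes were called in opposite directions in the 2 sexes and 1 of them has a name. This was Acot3, with 0.99 and 0.76 in females and a mean of -2.81 in males (difference -3.68, adjusted p = 0.00502), and its F8/F4 call was lost without either array. The number of genes with a called difference was 120 without array 1 of F8/F4 and 110 without array 2, and 236 and 131 without array 1 and array 2 of M8/M4. With the shared pools in the covariance it was 42, and among the 6 arrays of the same scan day limma called 0, where 676 genes above and 525 below had an unadjusted p below 0.05.

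**Figure D5:**
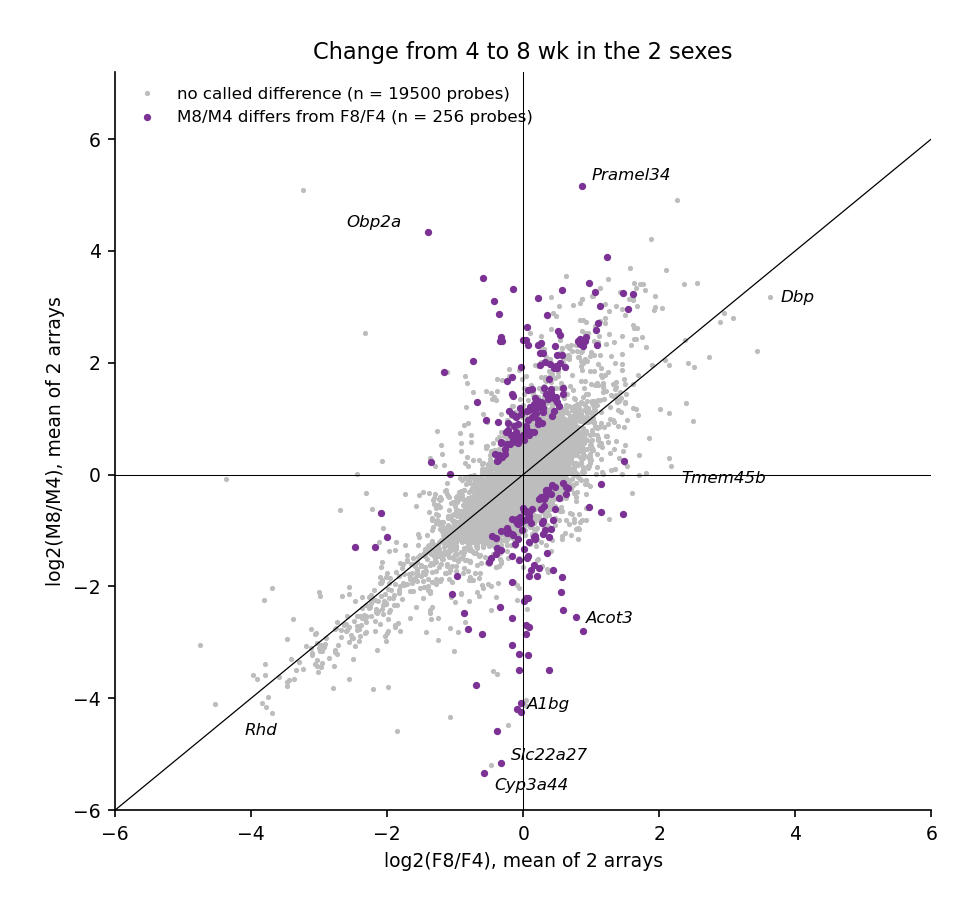
Log2 ratio of 8 over 4 wk in female liver (F8/F4, x axis) against male liver (M8/M4, y axis) for 19,756 named probes, each the mean of 2 arrays; the 256 probes with a called difference are purple and the line marks equal change. Genes such as Rhd and Dbp lie near the line, while Cyp3a44, A1bg and Obp2a lie near 0 to -1.4 in females and far from 0 in males.

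Most of the falls in female liver were also seen in males. Of the 700 genes down regulated in F8/F4, 555 (79.3%) were down regulated in M8/M4, which is 43.8% of the 1266 genes down regulated there. Of the 612 up regulated genes, 313 (51.1%) were up regulated in M8/M4, which is 26.9% of the 1164 genes up regulated there. In males 6.38% of genes were down regulated and 4.44% up regulated, with 1 probe per gene. By group, 45 mitosis genes, 19 replication genes, 16 matrix genes and 6 erythroid genes fell in M8/M4. Their medians in M8/M4 were -2.54, -0.68 and -0.94 for the first 3, beside -2.44, -0.69 and -0.74 in F8/F4. The erythroid median was -1.60 in M8/M4, where 1 gene of the list, Alas2, was up regulated (0.98), and -1.62 in F8/F4. The difference between the sexes was called for no gene of these 4 lists.

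F8/F4 could also be read through other arrays, as M8/M4 minus M8/F8 plus M4/F4 of the same replicate number. Over the 25,378 probes bright in both groups, the direct mean and this indirect mean differed with an SD of 0.18 on the log2 scale. For Bub1 the indirect values were -3.26 and -3.75, for Col3a1 -1.42 and -1.41, for Nr1d1 2.28 and 1.80, and for Cyp7a1 1.18 and 1.68. The M8/F8 and M4/F4 arrays hold the same groups of RNA as F8/F4, but whether they hold the same pools is not stated in the sources used here. These values therefore cannot separate the error of the arrays from the spread between pools.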

How the data were processed

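Liver RNA of CD-1 mice, 12 mice per age and sex in 2 pools of 6 at 4 and 8 wk and in pools of 5 at 3 wk, was amplified, labelled with Alexa 555 or Alexa 647 and hybridized to Agilent 4x44k arrays. The authors' scanner software (Feature Extraction 10.7.1.1) subtracted local background and applied linear and LOWESS dye normalization, and deposited a log10 ratio of red over green with processed intensity signals and flags per spot. The deposited value table is identical to these log10 ratios. The dyes of F8 and F4 were taken from the labels.

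Ratios were turned to log2 of F8 over F4, non-control spots were averaged per probe, and non-uniform spots were left out. All 14 arrays were fitted per probe in limma 3.58.1 (R 4.3.3) with 7 comparisons and 1 dye term, leaving 6 residual degrees of freedom. Because the fit removes a dye difference, an SE can be smaller than the spread between the 2 arrays. P-values were adjusted by Benjamini-Hochberg over all probes and comparisons, and for the difference between the sexes over all probes. Called genes are distinct symbols plus unnamed probes, and lists use the probe of highest mean signal per gene. Accessions named 26,055 of 39,429 probes through RefSeq gene names (GRCm38.p6), and the array headers name mm9. The fit was tested on simulated data. Bounds came from normexp-corrected signals (offset 50), an offset that draws ratios toward 1. A dim signal below the lowest one flagged well above background was raised to it. For most genes this changed nothing, and the bound is the ratio of the corrected signals. The number of arrays limits the precision.

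The members and lists were chosen with earlier results of these data known. Genes were named by rule: the 12 highest and 12 lowest called genes bright in both groups, the 6 highest and 6 lowest bright in 1 group, up to 4 called members in each direction per list (or its 2 brightest where fewer than 2 were called) and up to 3 per family, the 8 highest and 8 lowest differences between the sexes, and genes called in opposite directions. Other genes named, such as Afp, Pcna, Per3, Alas2 and Igf1, are list members picked after their values were seen. Some results are not reported here. The alternatives changed the dye term, arrays, block, covariance, filters, background correction and thresholds. The deposited p-values of single spots and the study's own calls were not used. Tables and plots were made with Python 3.11.15, pandas 2.3.3 and matplotlib 3.10.9.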

Additional observations from a re-analysis of the deposited data

Results flagged for a closer look

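The difference between the sexes in the change from 4 to 8 wk was tested itself (limma, M8/M4 minus F8/F4, adjusted over all probes), and the 16 genes below have the 8 highest and the 8 lowest values among the called ones. Of the 16, 12 were not called with shared pools in the covariance (Obp2a, Cyp3a44, Slc22a29 and Acot3 were), and none was called with the arrays of the second scan day alone. The difference was lost for 9 genes without array 1 of F8/F4, for 7 without array 2, and for 8 where both groups had to be bright. Values are differences on the log2 scale. Obp2a had a difference of 5.74 and Pramel34 of 4.30. Dkk4, an inhibitor of Wnt signalling, was at 4.10, Capn8 at 3.53 and AA792892 at 3.46. Gstp2, a glutathione S-transferase, was at 3.23, Enpp6 at 3.01 and Olfr935 at 2.95. In females these 8 genes had mean ratios from -1.40 (Obp2a) to 0.86 (Pramel34). Their F4 signals on array 1 were between 2.01 and 25.8 except for Gstp2, whose F8/F4 values were -0.24 and -0.49. In F8 Gstp2 was the only one of them well above background on an array.

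In the other direction the transporter gene Slc22a27 had a difference of -4.84, Cyp3a44 of -4.76, Rsph4a of -4.21 and the transporter gene Slc22a29 of -4.20. A1bg was at -4.09, the sulfotransferase Sult2a2 at -4.06, Cyp2b9 at -3.88 and Acot3 at -3.68. In females the ratios of these 8 genes lay between -0.58 (Cyp3a44) and 0.87 (Acot3), and in males between -5.34 (Cyp3a44) and -2.81 (Acot3). Sult2a2 was at -0.03 on both arrays of F8/F4. With 2 arrays per comparison no outlying array can be singled out.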

How the results depend on the processing

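Without the arrays of the other comparisons, limma called 0 genes up, 0 down and 0 of the mitosis genes in F8/F4 and 0 differences between the sexes, where 586 genes up, 682 genes down and differences of 521 genes (higher in males) and 439 genes (lower) had an unadjusted p below 0.05 with the same filters. The 6 arrays of the second scan day gave 114 up, 319 down and 0 differences. Leaving out each F8/F4 array gave 308 to 378 up, 425 to 557 down, 44 mitosis genes and 110 to 120 differences, and leaving out each M8/M4 array 131 to 236 differences. A lone array is then assumed to vary like the others.

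Normexp and loess gave 395 genes up. Omitting the fold threshold gave 2358 up and 2202 down. With shared pools as a covariance 42 differences were called, with 6 group means 1134, and with error-weighted averages at an unadjusted p below 0.0001 625. Fitting bright probes only, an alternative chosen after seeing the data, gave 716 up and 771 down. With the replicate number as a block there were 607 up, 719 down and 358 differences, and Ppp1r3g, Sox9, Kif26b and Cyp2g1 were not called. M8/M4 and F8/F4 share no pool. Whether a replicate number stands for the same pools in the comparisons that share a group is not stated in the sources used here. The differences between replicates correlated with those of F8/F4 at r from -0.453 (M8/F8) to 0.536 (F8/F3) across genes, which are not independent replicates. No named gene that was called changed direction. Of the named genes not called in F8/F4, 1 changed sign without array 1 and 3 without array 2. Up regulated genes outnumbered down regulated ones without the fold threshold and with error-weighted averages (820 and 816). Medians of some lists near 0 changed sign. Without array 2 they went, among others, to -0.01 for female-biased genes, -0.004 for acute phase genes and -0.025 for flavin monooxygenases, and without array 1 that of the growth hormone axis, to 0.003. Of 92 named genes called, 44 were called under 15 alternatives, which leaves out the fits on the F8/F4 arrays or 1 scan day alone and the filter that requires both groups to be bright.

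Taking the median over all bright probes of a gene moved the list medians to -0.18 for imprinted growth, -1.28 for juvenile liver, 0.24 for hormone receptors, -2.09 for erythroid genes, 0.073 for glutathione S-transferases, 0.14 for Slco transporters, 0.028 for kinesins and -0.099 for serpins. The cause of these changes was not tested. Probes at or near background, with only a bound in 1 group, limit the size of the largest folds.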

Other observations

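Further gene families, chosen after their values were seen, are given as values only. Over all genes tested, 2.28% were up regulated and 3.72% down regulated with 1 probe per gene, and no share below is tested against these. Of 18 chaperones and folding factors of the endoplasmic reticulum, 8 were down regulated in F8/F4 (44.4%) and 1 was up regulated, with a median of -0.47 beside 0.02 over all genes tested. Dnajb9 was at -1.34 and -1.01, Creld2 at -1.26 and -1.08, Sdf2l1 at -1.22 and -1.06, and Hspa5, the chaperone BiP, at -1.17 and -0.88. Manf had a mean of -0.94 and Pdia6 of -0.59. Dnajb11, which encodes a co-chaperone of BiP, went the other way with a mean of 2.05, and it was at 2.98 in M8/M4, where Hspa5 was at -1.06.

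Of 286 solute carriers tested, 19 were up regulated (6.64%) and 10 down regulated (3.5%, near the share over all genes). Slc10a2, the sodium-dependent bile acid transporter known from the ileum, was at 1.34 and 1.62, and it was at 0.24 in M8/M4. The fructose transporter Slc2a5 was at 1.55 and 1.35, and Slc13a2 had a mean of 1.55. Slc22a16 was not well above background in F4 and rose by at least 1.19-fold. The deepest fall was that of the amino acid transporter Slc38a5, at -2.79 and -2.41.

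Of 60 interferon-induced genes tested 6 were down regulated (10.0%) and none up regulated, among them Ifi27l2a (-0.87 and -1.32) and Isg20 (-1.13 and -0.83). Among 25 chemokines 3 fell (12.0%), with Ccl7 at -1.23, Ccl3 at -0.87 and Cxcl10 at -0.77. Foxm1, a transcription factor of the mitotic genes, fell by 2.31 and was the 1 call among 28 forkhead factors (3.57%). Among 56 histone genes 5 fell (8.93%), H2bc23 among them (-2.09 and -3.03). Of 21 tubulins 4 fell (19%) and Tubb2b rose (1.06 and 1.19).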
